A study of Bos taurus and Bos indicus with 12 samples.

Results

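The leukocyte adhesion molecules described here are the products of 6 genes, chosen by name: the selectin genes SELE and SELP, the immunoglobulin-type ligand genes ICAM1 and VCAM1, the junction gene PECAM1 and the leukocyte integrin gene ITGB2. All 6 were on the array. PECAM1 had 2 probe sets and each other gene had 1, so the genes were represented by 7 of the 24016 probe sets tested and made up 6 of the 9155 genes named there. RNA came from skin punches of 12 female cattle and was read on 1 bovine array for each animal. The naive animals, Holstein-Friesian at 12 months of age and Brahman at 18 months, had not met the cattle tick Rhipicephalus microplus before. Infested Holstein-Friesian and infested Brahman animals were 6 months old, had gone through repeated heavy tick challenge, and were biopsied where young larvae were attached. Each of these 4 groups held 3 animals. Brahman cattle, of indicine descent, are known for resistance to this tick, and Holstein-Friesian dairy cattle for susceptibility. Age and infestation cannot be told apart within a breed, nor can breed and age between the naive groups. The labels give the Brahman samples as Bos indicus, and the part of probe mismatch in breed differences was not tested.

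Leukocytes leave the blood in steps. Selectins on activated endothelium, E-selectin (SELE) and P-selectin (SELP), catch passing cells by their carbohydrate ligands and make them roll. Integrins on the leukocyte, including those that contain the beta 2 chain encoded by ITGB2, then bind ICAM1, while the integrin VLA-4 binds VCAM1, and the cell stops. PECAM1, at the contacts between endothelial cells, takes part in the passage through the vessel wall. SELE, ICAM1 and VCAM1 are induced in endothelium by tumour necrosis factor and interleukin 1. SELP is also stored ready-made in endothelial granules and in platelets.

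Values are log2 expression by RMA (robust multi-array average), on which a difference of 1 is a doubling, and levels are set against each other only within a probe set. Keratin and collagen genes of skin were among the highest signals: KRT14 lay between 14.22 and 14.67 on the 12 arrays and COL1A1 between 13.08 and 14.75. Of 3 blood endothelial markers, CDH5 lay between 7.54 and 8.11, TEK between 6.03 and 8.43 and VWF between 4.45 and 6.07, the last never above the lowest 39.8% of probe sets of its array. No detection call was used, and how far a signal lies above background is unknown. The arrays differed in RNA integrity, read as the mean 5' minus 3' log2 signal of 5 control transcripts, which drops as RNA degrades. This index was between -1.39 and -0.82 on the 6 naive arrays, between -2.73 and -0.75 on the infested Holstein-Friesian arrays and between -4.91 and -2.07 on the infested Brahman arrays. The lowest values were in infested Brahman 1 and infested Holstein-Friesian 1. In Brahman animals every infested array had a lower index than every naive array, so index and infestation cannot be told apart there.

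Across both breeds, SELP, ICAM1 and ITGB2 were higher in infested than in naive skin, and SELE, VCAM1 and PECAM1 did not pass the test. Averaged over the breeds, the rise was 2.50-fold for SELP, 2.03-fold for ICAM1 and 1.87-fold for ITGB2. Of the 7 probe sets, 3 were called at an adjusted p under 0.05, all of them higher, against 27.9% of all probe sets called in either direction and 13.6% called higher. The median difference was 0.57 log2 over the 7 probe sets and 0.0044 over all probe sets. Within a single breed none of the 7 passed, where 5.02% of all probe sets did in Holstein-Friesian and 19.8% in Brahman animals. At an unadjusted p under 0.05, 3 passed in Holstein-Friesian animals by limma (21.6% of all probe sets did) and 1 in Brahman animals (34.7% did). Adjusted p-values come from limma, with Benjamini-Hochberg adjustment over all 24016 probe sets in each comparison.

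**Figure D1:**
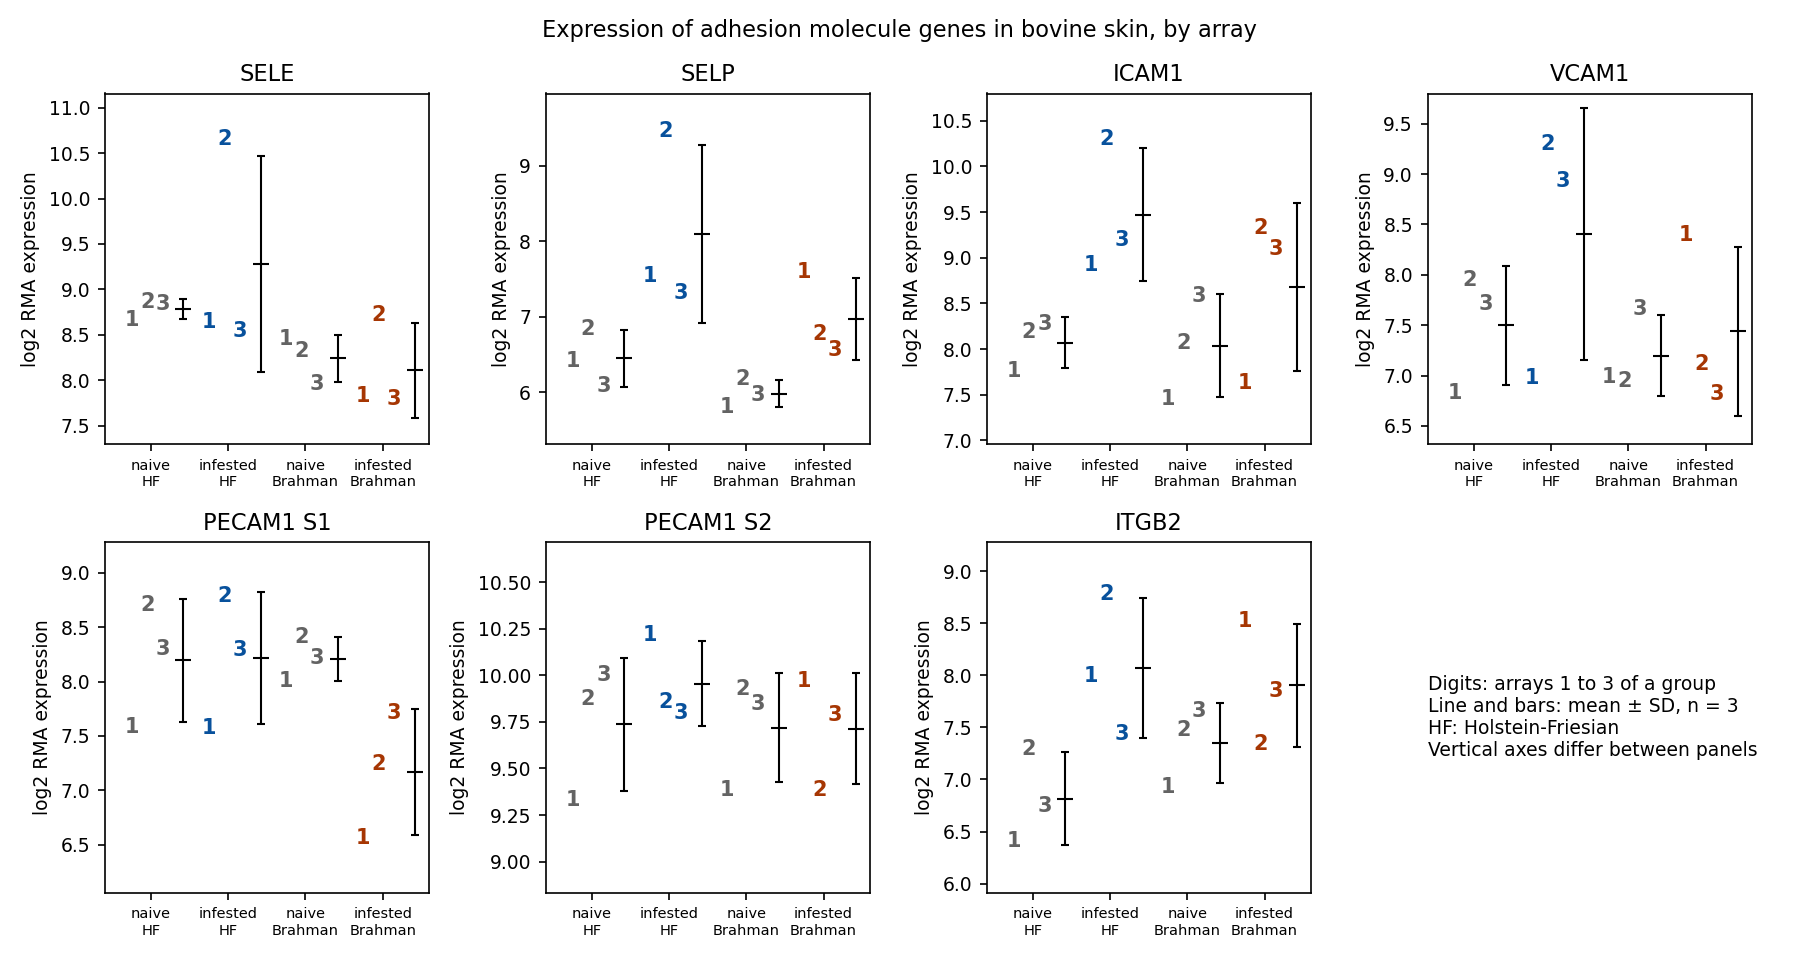
Log2 RMA expression (vertical axes, which differ between panels) of the 7 probe sets in the 4 groups. Digits are arrays 1 to 3 of a group, and the line with bars is the mean ± SD (n = 3). Infested Holstein-Friesian 2 is the highest array in all panels but PECAM1 S2.

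SELP, the selectin of endothelial and platelet granules, stood at 6.42, 6.85 and 6.09 in naive Holstein-Friesian arrays 1 to 3 and at 7.54, 9.46 and 7.31 in infested ones. In Brahman animals it stood at 5.81, 6.17 and 5.96 in naive arrays and at 7.59, 6.77 and 6.56 in infested ones. Within each breed every infested array was above every naive array, and infested Holstein-Friesian 2 was the highest of all 12. The groups did not overlap for 30.3% of all probe sets in Holstein-Friesian animals (14.4% with infested higher) and for 38.5% in Brahman animals (19.3% with infested higher). Over both breeds the 6 infested and 6 naive arrays overlapped for all 7 probe sets, and did not for 12.6% of all probe sets. The difference was 1.65 ± 0.48 log2 (SE, adjusted p = 0.0761) in Holstein-Friesian and 0.99 ± 0.48 (adjusted p = 0.171) in Brahman animals. Averaged over the breeds it was 1.32 ± 0.34 (adjusted p = 0.0161), and 6 of 6 infested arrays lay above the naive mean of their breed. SELP passed in this average whichever 1 of the 12 arrays was left out, with differences from 0.98 without infested Holstein-Friesian 2 to 1.52 without infested Holstein-Friesian 3. With the RNA integrity index as a covariate the difference was 1.33 ± 0.47 and did not pass (adjusted p = 0.0793). In whole skin, more cells of a kind and more RNA per cell cannot be told apart, for SELP or for any other gene here.

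The group means of SELP fell in the order infested Holstein-Friesian (8.10 ± 1.18, SD, n = 3), infested Brahman (6.98 ± 0.54), naive Holstein-Friesian (6.45 ± 0.38) and naive Brahman (5.98 ± 0.18). Each neighbouring pair in this order overlapped. Platelets also carry P-selectin, and 3 of the 9 platelet genes on a fixed list were measured. In the average of the breeds PF4 (platelet factor 4) rose by 1.29 ± 0.22 log2 (adjusted p = 0.00244) and 2 of 4 probe sets of ITGB3, the beta 3 integrin chain, rose, the higher-signal one by 1.24. The platelet integrin gene ITGA2B fell by 0.39 (adjusted p = 0.0258). The part of platelet RNA in the SELP signal was not tested.

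SELE, the selectin that endothelium makes on activation, was level in most animals and high in 1. It stood at 8.66, 8.86 and 8.84 in naive Holstein-Friesian arrays and at 8.64, 10.66 and 8.54 in infested ones. The naive Brahman arrays held 8.45, 8.33 and 7.95, and the infested ones held 7.82, 8.71 and 7.79. Infested Holstein-Friesian 2 alone was far above its group, and the other 2 infested Holstein-Friesian arrays were below the naive ones. The differences were 0.49 ± 0.47 (adjusted p = 0.593) in Holstein-Friesian and -0.13 ± 0.47 (adjusted p = 0.868) in Brahman animals. Without infested Holstein-Friesian 2 the Holstein-Friesian difference of SELE was -0.19. The 95% confidence interval of its average over the breeds ran from -0.56 to 0.92, which leaves room for a rise of up to 1.89-fold. The 2 naive groups did not overlap, since every naive Brahman array was below every naive Holstein-Friesian array, a pattern seen for 7.21% of all probe sets (14.5% in either direction). That difference, -0.54 ± 0.47, did not pass (adjusted p = 1).

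ICAM1, the endothelial ligand of the beta 2 integrins, stood at 7.76, 8.19 and 8.27 in naive Holstein-Friesian arrays and at 8.92, 10.30 and 9.20 in infested ones. In Brahman animals it stood at 7.46, 8.06 and 8.58 in naive arrays and at 7.63, 9.33 and 9.09 in infested ones. The Holstein-Friesian groups did not overlap, whereas infested Brahman 1 lay within the naive Brahman range. In Holstein-Friesian animals 14.4% of all probe sets did not overlap with infested higher (30.3% in either direction). The difference was 1.40 ± 0.47 in Holstein-Friesian animals (adjusted p = 0.114) and 0.65 ± 0.47 in Brahman animals (adjusted p = 0.357). In the fit with the replicate number as a block, which the labels do not explain, the Holstein-Friesian value of ICAM1 passed (adjusted p = 0.0423). The mean of the breeds was 1.02 ± 0.33 (adjusted p = 0.042), and 5 of 6 infested arrays lay above the highest naive array of their breed.

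The difference of ICAM1 was larger in the fits that used the RNA index. Infested Brahman 1, its lowest infested array, also had the lowest index (-4.91). Without infested Brahman 1 and infested Holstein-Friesian 1, the 2 arrays of lowest index, the difference of ICAM1 was 1.68 ± 0.36 in Holstein-Friesian (adjusted p = 0.0142) and 1.18 ± 0.36 in Brahman animals (adjusted p = 0.0381). With the index as a covariate it was 1.66 ± 0.29 (adjusted p = 0.0117) and 1.97 ± 0.41 (adjusted p = 0.0201), and 1.82 ± 0.27 in the mean of the breeds (adjusted p = 0.00228). In Brahman animals the index parted infested from naive arrays, so the covariate values there and in the mean are not corrected differences. With all other settings kept, the call in the mean of the breeds was lost when any of 9 arrays was left out, namely naive Holstein-Friesian 1, 2 or 3, naive Brahman 1 or 2, infested Holstein-Friesian 2 or 3 and infested Brahman 2 or 3. The ICAM1 difference was then 0.82 to 1.09, with adjusted p between 0.0563 and 0.0955. The call was also lost after cyclic loess (1.00, adjusted p = 0.054).

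VCAM1, the endothelial ligand of the integrin VLA-4, varied most within groups, with a residual SD of 0.83 log2 against a median of 0.26 over all probe sets. It stood at 6.83, 7.95 and 7.71 in naive and at 6.98, 9.30 and 8.94 in infested Holstein-Friesian arrays. It stood at 6.99, 6.95 and 7.66 in naive and at 8.39, 7.11 and 6.82 in infested Brahman arrays. In each breed the groups overlapped: infested Holstein-Friesian 2 and 3 and infested Brahman 1 were above all naive arrays of their breed, and the other 3 infested arrays were not. The difference was 0.91 ± 0.59 (adjusted p = 0.405) in Holstein-Friesian and 0.24 ± 0.59 (adjusted p = 0.805) in Brahman animals. Without the 2 arrays of lowest RNA index the Holstein-Friesian difference of VCAM1 was 1.62 ± 0.33 and passed (adjusted p = 0.0109), while the Brahman difference was -0.23. VCAM1 passed in the mean of the breeds without infested Holstein-Friesian 1 (0.93, adjusted p = 0.0499), against 0.57 ± 0.42 with all arrays (adjusted p = 0.327) and 0.34 without infested Brahman 1. In the mean VCAM1 also passed without the 2 arrays of lowest index (0.69, adjusted p = 0.0426). With array weights VCAM1 passed in Holstein-Friesian animals (1.47, adjusted p = 0.0291).

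ITGB2 encodes CD18, the beta chain shared by the leukocyte integrins LFA-1 and Mac-1, and marks leukocytes rather than the vessel. It stood at 6.41, 7.29 and 6.74 in naive and at 7.99, 8.78 and 7.44 in infested Holstein-Friesian arrays, which did not overlap. Among Holstein-Friesian arrays 14.4% of all probe sets did not overlap with infested higher (30.3% in either direction). In Brahman animals ITGB2 stood at 6.93, 7.47 and 7.66 in naive and at 8.52, 7.34 and 7.85 in infested arrays, which did overlap through infested Brahman 2. The difference was 1.25 ± 0.39 (adjusted p = 0.0878) in Holstein-Friesian and 0.55 ± 0.39 (adjusted p = 0.336) in Brahman animals, and 0.90 ± 0.27 (adjusted p = 0.0308) in their mean. The call in the mean was lost without naive Holstein-Friesian 1 or 3, naive Brahman 1 or 2, infested Holstein-Friesian 2 or infested Brahman 1, when ITGB2 differed by 0.72 to 0.93 (adjusted p between 0.0515 and 0.0743). It was also lost with the RNA index as a covariate (0.77, adjusted p = 0.182) and without the 2 arrays of lowest index (0.77, adjusted p = 0.059).

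PECAM1, also called CD31, is found on endothelium, platelets and many leukocytes, and its 2 probe sets gave different pictures. The probe set with the suffix S2 had the smallest spread of the 7, with group means from 9.71 ± 0.30 in infested Brahman to 9.96 ± 0.23 in infested Holstein-Friesian animals (SD, n = 3). Its infestation difference was 0.22 ± 0.23 in Holstein-Friesian and -0.0063 ± 0.23 in Brahman animals, with a 95% confidence interval from -0.25 to 0.46 for their mean. The probe set with the suffix S1 stood at 8.01, 8.41 and 8.22 in naive and at 6.56, 7.24 and 7.71 in infested Brahman arrays, which did not overlap. In Brahman animals the groups did not overlap for 38.5% of all probe sets, in either direction. The Brahman difference of S1 was -1.04 ± 0.37 (adjusted p = 0.0715), and in Holstein-Friesian animals it was 0.018 ± 0.37 (adjusted p = 0.987). The infested Brahman arrays 1, 2 and 3 ranked in the same order by S1 as by RNA index, at -4.91, -2.56 and -2.07. With the index as a covariate the Brahman difference of PECAM1 S1 was 0.022 ± 0.31 (adjusted p = 0.976), and without the 2 arrays of lowest index it was -0.73 ± 0.30 (adjusted p = 0.105). The covariate value is not a corrected difference, since the index parted infested from naive Brahman arrays. The Brahman difference of S1 passed with array weights (-0.99, adjusted p = 0.0286) and with the replicate block (-1.04, adjusted p = 0.013). It also passed without infested Holstein-Friesian 1 (-1.04, adjusted p = 0.0464) and without infested Brahman 3 (-1.31, adjusted p = 0.0434). The labels do not explain the block, and same-numbered naive and infested Brahman arrays correlated by -0.189 to -0.053 in their deviations from the group means. No direction for PECAM1 follows from probe sets that differ in this way.

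**Figure D2:**
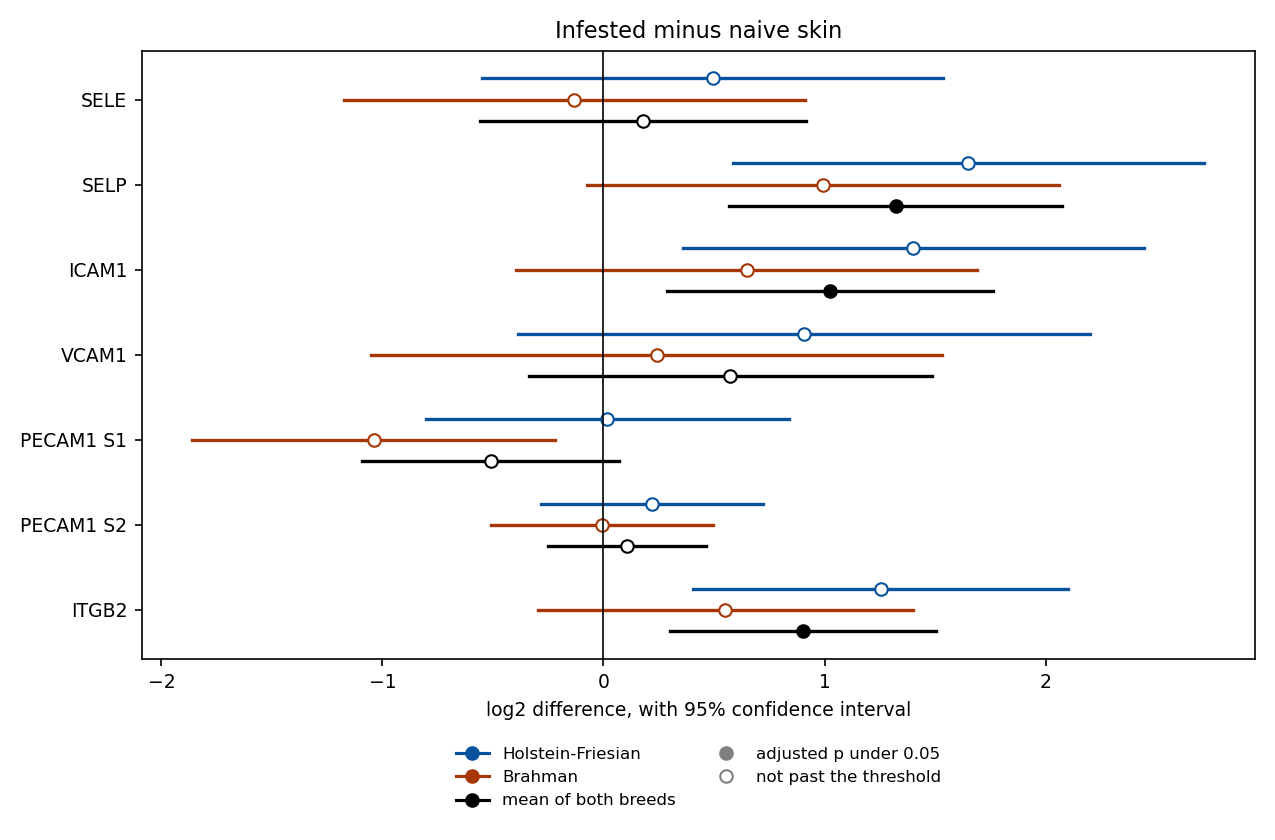
Log2 difference between infested and naive skin (horizontal axis) with its 95% confidence interval for each probe set, in Holstein-Friesian animals, in Brahman animals and averaged over both. Filled points passed at an adjusted p under 0.05: only the averages of SELP (1.32), ICAM1 (1.02) and ITGB2 (0.90) did.

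Of the 12 arrays, infested Holstein-Friesian 2 held the highest of the 12 values for 6 of the 7 probe sets, all but PECAM1 S2, while it held the highest value for 6.26% of all probe sets. Its index of -0.75 was the highest of the 12 arrays. Without infested Holstein-Friesian 2 the mean difference over the breeds was 0.98 for SELP, which passed (adjusted p = 0.0274), 0.82 for ICAM1 and 0.72 for ITGB2, which did not. The count of called probe sets was then 1, against 3 with all arrays. Infested Brahman 1 stood apart over all probe sets, holding the highest of the 12 values for 25.6% of them and the lowest for 16.0%. Without it 3 of the 7 were called in Holstein-Friesian animals, namely SELP, ICAM1 and ITGB2, against 0 with all arrays, at unchanged differences, since the fit shares 1 estimate of the spread over the 4 groups.

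**Figure D3:**
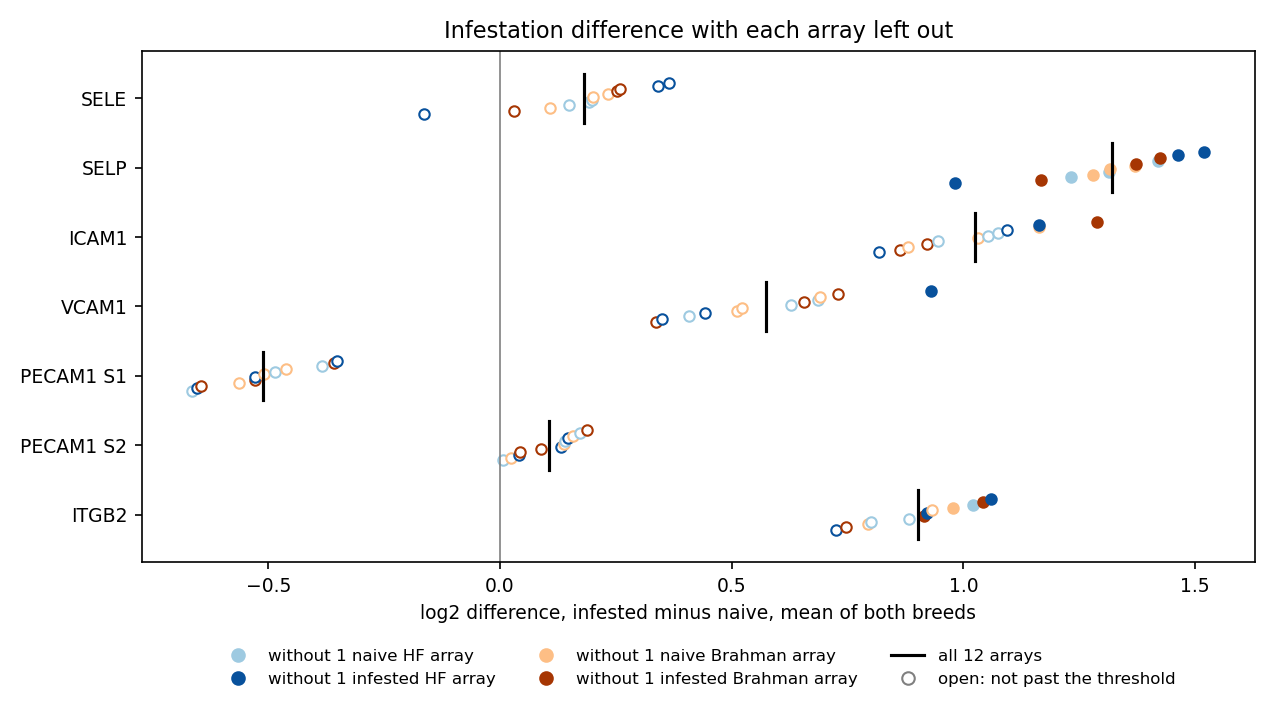
Infested minus naive log2 difference averaged over the breeds (horizontal axis) with each of the 12 arrays left out (points) and with all of them (black lines). Filled points passed at an adjusted p under 0.05. SELP passed in all 12 cases, ITGB2 in 6, ICAM1 in 3 and VCAM1 in 1.

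The breeds were then compared for these genes. Among infested animals, which were of the same age, all 7 probe sets were lower in Brahman than in Holstein-Friesian skin, with a median of -0.97 log2, where 57.5% of all probe sets were above 0. None passed after adjustment, and 0.167% of all probe sets did. The differences were -1.17 ± 0.47 for SELE (adjusted p = 0.344), -1.13 ± 0.48 for SELP (adjusted p = 0.363), -1.04 ± 0.37 for PECAM1 S1 (adjusted p = 0.296), -0.97 ± 0.59 for VCAM1 and -0.79 ± 0.47 for ICAM1. They were nearer 0 for PECAM1 S2 (-0.24 ± 0.23, adjusted p = 0.658) and ITGB2 (-0.17 ± 0.39, adjusted p = 0.873). At an unadjusted p under 0.05, 3 of the 7 passed by limma, namely SELE, SELP and PECAM1 S1, against 13.0% of all probe sets. The RNA index was on average lower in the infested Brahman arrays, with a mean of -3.18 ± 1.52 against -1.57 ± 1.04 in infested Holstein-Friesian animals (SD, n = 3). With the index as a covariate the difference was -0.28 ± 0.27 for PECAM1 S1, -0.67 ± 0.55 for SELE, -1.12 for SELP and 0.16 for ICAM1, and none passed. In each of the 7 the 2 infested groups overlapped, and 13.4% of all probe sets did not. Without infested Holstein-Friesian 2 the difference was -0.48 for SELE, -0.45 for SELP, -0.52 for VCAM1 and 0.19 for ITGB2. Without the 2 arrays of lowest RNA index that of VCAM1 was -2.15 ± 0.36 and passed (adjusted p = 0.00751), when it rested on 2 arrays in each infested group.

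Among naive animals, whose breeds differed in age, none of the 7 passed, 0 of them at an unadjusted p under 0.05 by limma (4.78% of all probe sets did), and 0.025% of all probe sets passed after adjustment. ITGB2 had the value farthest above 0, at 0.54 ± 0.39, and SELE the value farthest below, at -0.54 ± 0.47. The infestation effect in Brahman animals minus that in Holstein-Friesian animals was below 0 for all 7 probe sets, where 55.8% of all probe sets were above 0. It ran from -1.06 ± 0.53 for PECAM1 S1 (adjusted p = 0.662) to -0.23 ± 0.32 for PECAM1 S2 (adjusted p = 0.856). It was -0.66 ± 0.69 for SELP, -0.75 ± 0.67 for ICAM1 and -0.70 ± 0.55 for ITGB2. Without infested Holstein-Friesian 2 it was 0.062 for SELE and 0.021 for SELP. The age difference between the naive groups enters this comparison as well. None of the 7 passed, against 0.00416% of all probe sets, and 0 did at an unadjusted p under 0.05 by limma (7.46% of all probe sets did). The 95% confidence interval of the SELP difference ran from -2.17 to 0.85, so a stronger response in either breed lies within it. The smaller values in Brahman skin therefore do not show a different response between the breeds.

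**Figure D4:**
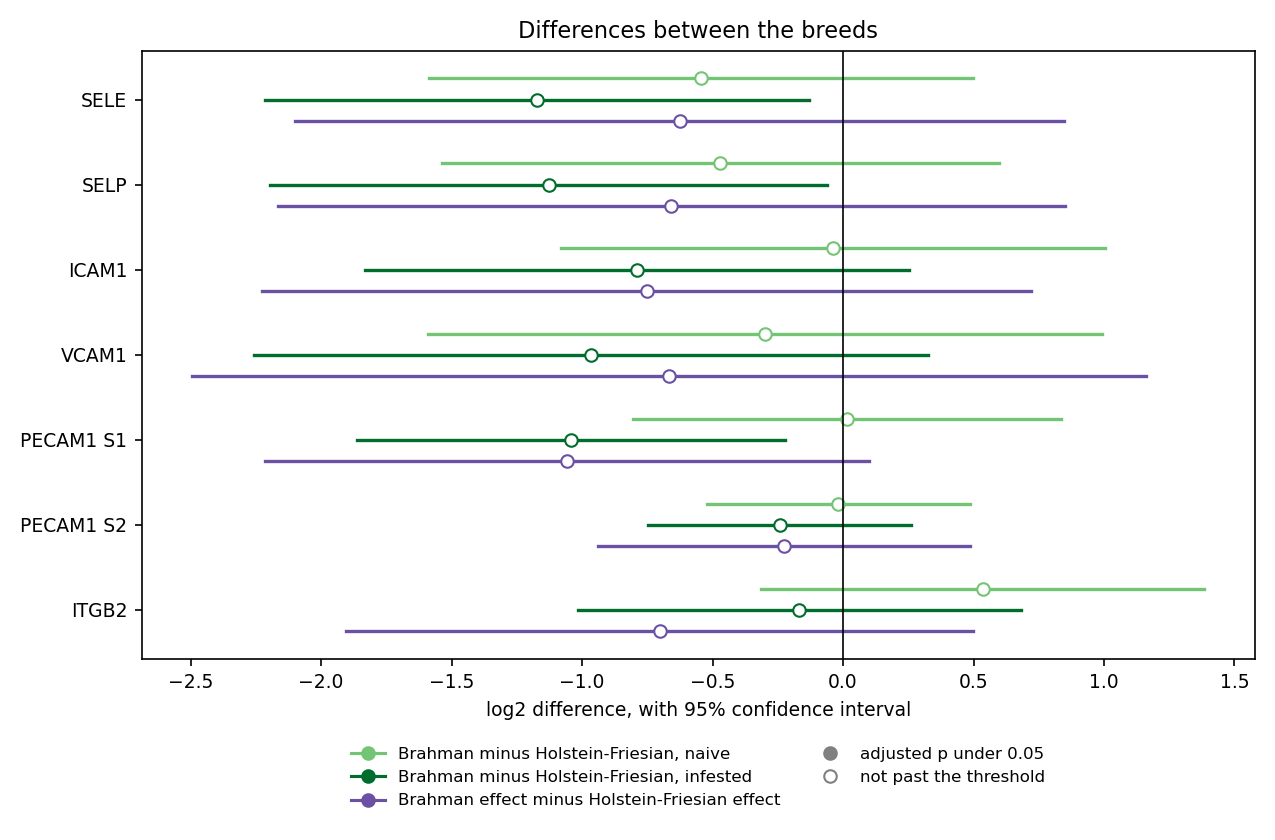
Log2 differences between the breeds (horizontal axis) with 95% confidence intervals: Brahman minus Holstein-Friesian in naive and in infested skin, and the infestation effect in Brahman minus that in Holstein-Friesian animals. All points are open, since none passed, and in infested skin all 7 lie below 0.

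The other genes of the adhesion cascade were taken from 4 lists. Of selectin ligands and the enzymes that build them, 11 of 15 were measured, and in the mean of the breeds 3 rose and none fell (median 0.059 log2). That is 27.3% higher, against 13.6% called higher and 27.9% called in either direction over all probe sets. They were GCNT1 (0.90 ± 0.27, adjusted p = 0.029) and ST3GAL4 (0.35), enzymes that build selectin-binding sugars, and CHST2 (0.71), a carbohydrate sulfotransferase. For GCNT1 1 of 2 probe sets rose, and the other stood at -0.048. GLG1, a ligand of E-selectin, stood at 0.75 ± 0.63 (adjusted p = 0.399). Within Brahman animals GCNT1 rose by 1.37 and CHST2 by 1.26. The infestation effect did not pass as different between the breeds for either gene (adjusted p = 0.679 for GCNT1 and 0.49 for CHST2). SELPLG, which encodes the main P-selectin ligand of leukocytes, stood at 0.0074 ± 0.13 (adjusted p = 0.973) for its higher-signal probe set, while the other rose by 0.57. SELPLG was named after its value was seen.

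Of leukocyte integrins and their regulators, 14 of 16 were measured, and 4 rose (28.6%) and 2 fell (14.3%) in the mean of the breeds (median -0.029). APBB1IP, an adaptor that couples Rap1 to integrin activation, rose by 1.40 ± 0.33 in Holstein-Friesian (adjusted p = 0.04) and by 1.25 ± 0.33 in Brahman animals (adjusted p = 0.0246). ITGAD, an alpha chain that pairs with ITGB2, rose by 1.14 ± 0.31 in the mean (adjusted p = 0.0201), and its other probe set stood at 0.028. RAP1B rose by 0.45 and RAPGEF3, which activates Rap1, fell by 0.44. The other alpha chains were named after their values were seen. ITGAL of LFA-1 stood at -0.49 ± 0.27 (adjusted p = 0.195) and ITGAM of Mac-1 at -0.044 ± 0.09 (adjusted p = 0.751). ITGA4, the alpha chain of the VCAM1 receptor, fell by 0.28 (adjusted p = 0.0269) from means of 4.02 and 3.84 in naive Holstein-Friesian and Brahman skin to 3.75 and 3.54. These means are low beside the array medians, which lay between 6.58 and 6.73. Whether the ITGA4 signal lies above background is unknown.

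Of immunoglobulin-type, junction and transmigration genes, 19 of 24 were measured, and 1 rose (5.26%) and 1 fell (5.26%) in the mean of the breeds (median 0.089), below the 27.9% called over all probe sets. CD99, which acts in transmigration after PECAM1, rose by 1.13 ± 0.14 (adjusted p = 0.000423), by 1.31 in Holstein-Friesian and by 0.94 in Brahman animals, and the 6 infested arrays were all above the 6 naive ones. The other CD99 probe set did not pass, at 0.11. Over both breeds infested and naive arrays did not overlap for 12.6% of all probe sets, in either direction. AOC3, the vascular adhesion protein, fell by 0.71 ± 0.13 for its highest-signal probe set (adjusted p = 0.00312), but its 3 probe sets disagreed, since 1 of them rose by 1.01. ACKR1, the chemokine receptor of venules, stood at 0.48 ± 0.24 (adjusted p = 0.157) and the phosphatase gene PTPRB of endothelium at 0.45 (adjusted p = 0.132).

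Of the inducers of endothelial adhesion molecules and their signalling, 34 of 43 were measured, and 6 rose (17.6%) and 1 fell (2.94%) in the mean of the breeds (median 0.19), beside 13.6% called higher over all probe sets. The NF-kB target and inhibitor of apoptosis gene BIRC3 rose by 1.16 ± 0.28 (adjusted p = 0.011), but its other probe set stood at -0.72. KLF4, a transcription factor of endothelium and epidermis, rose by 0.74 and CHUK, a kinase that activates NF-kB, by 0.53, while the transcription factor gene ATF2 fell by 0.93. IL6, the gene with the largest uncalled difference in Holstein-Friesian animals, stood there at 2.09 ± 1.18 (adjusted p = 0.334) and at 1.33 ± 0.83 in the mean of the breeds (adjusted p = 0.257). TNF and IL1B, 2 of the cytokine genes on this list, were named after their values were seen. TNF stood at 0.049 ± 0.16 in the mean of the breeds (adjusted p = 0.843) and IL1B at 0.64 ± 0.44 (adjusted p = 0.297), with 1.21 ± 0.62 in Holstein-Friesian and 0.075 ± 0.62 in Brahman animals.

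Markers of blood vessels did not rise with SELP and ICAM1. Over all probe sets 27.9% were called in the mean of the breeds in either direction, and 13.6% were called higher. Of 18 measured blood endothelial markers 5 fell (27.8%) and none rose in this mean (median -0.14), a share called near that of all probe sets. Those that fell were TIE1 by 1.08, EGFL7 by 0.83, PLVAP by 0.73, ENG by 0.65 and RAMP2 by 0.58. CDH5, the cadherin of endothelial junctions, named after its value was seen, stood at 0.099 ± 0.10 (adjusted p = 0.501), and the lower-signal probe set of CDH5 fell. The mean level of the 18 genes, set against the 6 naive arrays, lay between -0.03 and 0.24 in naive and between -0.22 and 0.15 in infested Holstein-Friesian arrays. It lay between -0.23 and -0.011 in naive and between -0.39 and -0.18 in infested Brahman arrays. Of 9 markers of pericytes and smooth muscle, the cells that wrap vessels, 3 fell (33.3%) and none rose (median -0.60), among them CNN1 by 1.24. Within a breed 3 of the 9 fell in Brahman animals, where 19.8% of all probe sets were called. In Holstein-Friesian animals 0 of the 9 were called, against 5.02% of all, and 0 for the difference between the breeds. The mean level of the 9 markers lay between -0.47 and -0.15 in infested Holstein-Friesian and between -1.52 and -0.24 in infested Brahman arrays. It was lowest in infested Brahman 1, the array of lowest RNA index. Of 5 markers of lymphatic endothelium, 4 rose (80%), with LYVE1 at 2.61 ± 0.39 (adjusted p = 0.0011), MMRN1 at 2.03, PDPN at 1.24 and CCL21 at 1.09. FLT4 did not pass, and PROX1 and RELN of this list were not measured. Some macrophages also express LYVE1.

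Some leukocyte markers rose, as ITGB2 did. Of 14 measured genes expressed across leukocytes, 8 rose (57.1%) and none fell in the mean of the breeds (median 0.75), and 6 did not pass. Over all probe sets 13.6% were called higher in this mean and 27.9% in either direction. Within a breed 5 of the 14 rose in Holstein-Friesian animals (35.7%) and 0 were called in Brahman animals (medians 1.20 and 0.42). Over all probe sets 5.02% and 19.8% were called there. For the difference between the breeds 0 of the 14 were called. In the mean the rise was led by CD48 (1.36), CD53 (1.31), PTPRC (1.10 ± 0.34, adjusted p = 0.0329) and LCP1 (1.00). PTPRC encodes CD45, the phosphatase on the surface of all leukocytes, and 2 of its 3 probe sets rose. The mean level of the 14 genes was between -0.40 and 0.20 in naive and between 0.63 and 1.36 in infested Holstein-Friesian arrays, and highest in infested Holstein-Friesian 2. In Brahman animals it was between -0.11 and 0.58 in naive and between 0.43 and 0.83 in infested arrays. Of 12 macrophage and dendritic cell genes 10 rose and none fell (median 1.34), among them MSR1 by 1.98 (1 of its 3 probe sets), C1QA by 1.98 and CD14 by 1.86. Of 13 T cell genes 3 rose and 1 fell, with CD8A at 0.89, and of 6 B cell and plasma cell genes 2 rose, POU2AF1 and MZB1. Within a breed 2 of the 6 B cell genes rose in Holstein-Friesian animals (median 1.14) and 0 were called in Brahman animals (median 0.045). Of the T cell genes 0 were called in Holstein-Friesian animals and 3 rose in Brahman animals. For the difference between the breeds 0 genes of either list were called. Of 12 genes used as neutrophil markers MMP9 rose by 0.85, PGLYRP1 fell by 5.63 and LTF by 1.40. The part of leukocyte numbers in the ITGB2, ICAM1 and SELP differences was not tested.

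**Figure D5:**
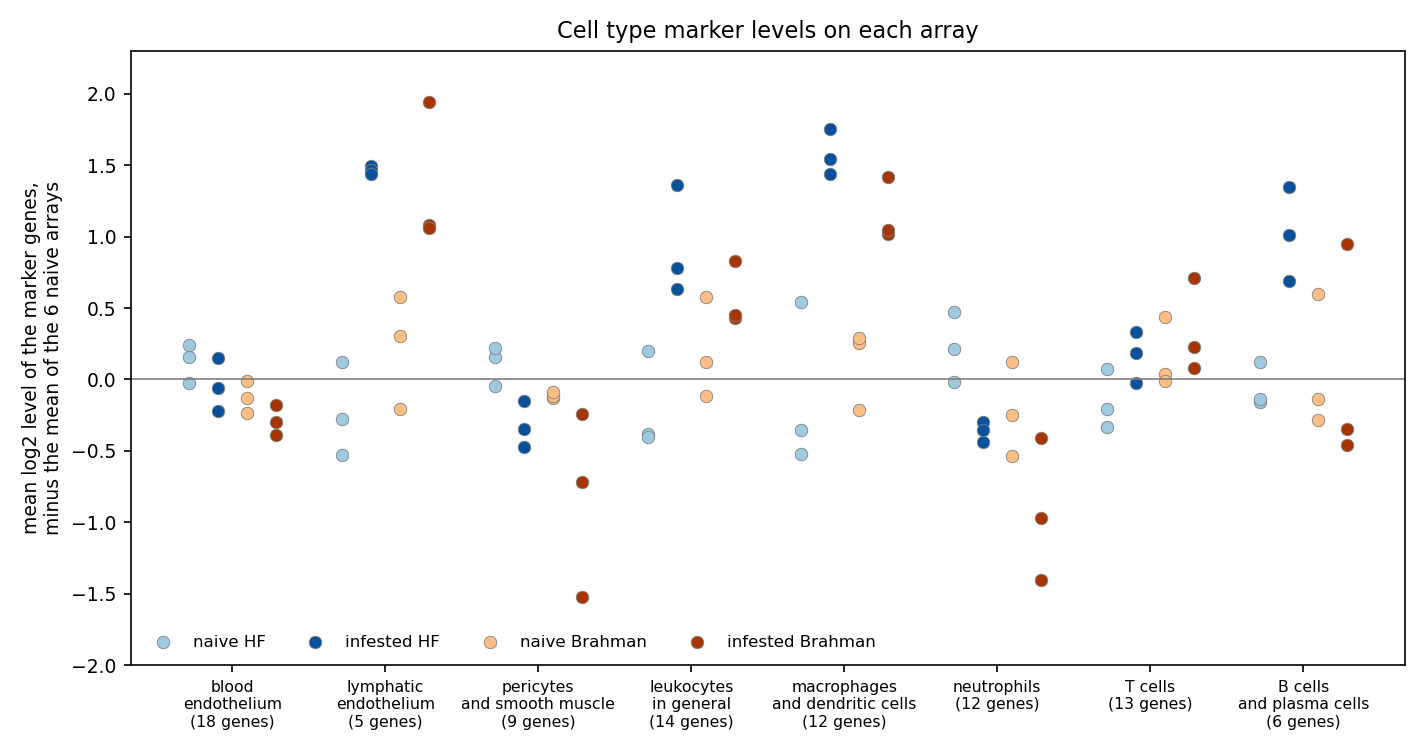
Mean log2 level of the marker genes of 8 cell types on each array, minus the mean of the 6 naive arrays (vertical axis). Points are arrays, coloured by group. Macrophage and lymphatic markers are higher on every infested array than on any naive array, while blood endothelial markers are not.

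The genes whose profile over the 12 arrays was most like that of each adhesion gene were found by Pearson correlation over all named probe sets, as a description. The 12 arrays share the 4 groups, so r was also taken over deviations from the group means. ITGB2 was most like the MHC class II gene BOLA-DRA (r = 0.971 over 12 arrays, 0.946 for deviations), followed by the interleukin 10 receptor gene IL10RA (0.958), PTPRC (0.95), the haematopoietic GTPase gene RAC2 (0.931) and the cytokine receptor chain CSF2RB (0.931). SELP was most like the hexokinase gene HK3 (0.947), the G protein regulator RGS16 (0.941), the chemokine gene CCL3 (0.938), GPR171 and LMCD1 (both 0.935). SELE was most like the complement gene C2 (0.896), the protease inhibitor TFPI2 (0.892), FOSL1 (0.891) of the AP-1 transcription factors, the endothelial early response gene APOLD1 (0.89) and the cholesterol hydroxylase CH25H (0.883). For FOSL1 the r of deviations was 0.95. The deviations of SELE were dominated by infested Holstein-Friesian 2, at 10.66 against 8.64 and 8.54 in its group. How far these correlations rest on that array was not tested.

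ICAM1 was most like the small GTPase gene RAB7B (0.952), the purine enzyme gene PNP (0.898), the thrombin receptor F2R (0.896), the immunoproteasome subunit PSMB9 (0.883) and RAP2B (0.879). VCAM1 was most like the oncostatin M receptor OSMR (0.934), CRK (0.912), B2M (0.909), the light chain of MHC class I, PALMD (0.891) and LOC286807 (0.889). PECAM1 S2 had the weakest best match, QNG1 (0.823), followed by the proteasome activator PSME2 (0.805), ABR (0.789), PEX2 (0.787) and the immunoproteasome subunit PSMB8 (0.778). PECAM1 S1 was most like PPP1R7 (0.958) and PGM1 (0.933). Between the adhesion genes themselves, deviations from the group means correlated by 0.799 for SELP with ITGB2, by 0.728 for SELE with SELP and by 0.769 for ICAM1 with PECAM1 S1. They correlated by 0.0626 for the 2 probe sets of PECAM1. Infested Holstein-Friesian 2 was the highest array for SELE, SELP, ICAM1, ITGB2 and PECAM1 S1, and its part in these correlations was not tested.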

How the data were processed

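RMA was applied by the authors, per the submitters' processing notes, and the deposited table holds its log2 values. Which RMA software and chip definition were used is not given in the sources used here, and values ranged as on a log2 scale. Apart from 112 control probe sets, all 24016 entered the tests, without a signal filter. Names came from the platform annotation: 1 symbol for 13292 probe sets, several for 86 and no symbol for 10638. The gene IDs of 13263 were found in the RefSeq gene table (assembly ARS-UCD2.0), with 0 symbols updated.

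All 12 arrays entered 1 model of 4 group means in limma 3.58.1 (lmFit, eBayes, R 4.3.3). The residual degrees of freedom were 8, and eBayes added 3.03. Tests were two-sided, with a threshold of 0.05 on the Benjamini-Hochberg adjusted p. Because the spread is pooled, a probe set has the same standard error in both breeds. Each sample is 1 animal, per the labels, and replicate spread is spread among animals. The number of arrays limits the precision.

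The genes, lists and settings were chosen with earlier results of these data known. For lists, a gene is its probe set with the highest mean. Named genes are all members, up to 4 genes per list (called genes first, by size) and the 5 most correlated genes of each member, and exceptions are stated. Called genes beyond 4 are also named for some lists. The procedure was tested on simulated data. Naive and infested Holstein-Friesian arrays of the same number correlated in their deviations from the group means by 0.113 to 0.249, which the rule used takes as paired, although no label explains it. In the other 5 pairs of groups not every correlation exceeded 0.1. Any 2 arrays shared at most 0.104% of values. Alternatives were array weights, cyclic loess, median centring, removal of the 40 percent of probe sets with the lowest mean signal, a robust prior with a trend, fits on the compared arrays alone, a replicate block, the RNA index as covariate, leaving out the 2 arrays of lowest index, and leaving out each array.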

Additional observations from a re-analysis of the deposited data

How the results depend on the processing

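SELP passed in the mean of the breeds in each of 12 fits without 1 array and in all other settings but the RNA index as covariate. With that covariate the difference was 1.33, and it did not pass (adjusted p = 0.0793). The number of members called in Holstein-Friesian animals, 0 in the main result, was 4 with array weights, 1 with the replicate block, 1 with the RNA index as covariate and 3 without the 2 arrays of lowest index, and 0 to 3 with 1 array left out. In Brahman animals, 0 members in the main result became 2, 1, 1 and 1 in the same settings and 0 to 1 with 1 array left out. In the mean of the breeds, 3 members became 1 with the index as covariate and 1 to 4 with 1 array left out. In infested animals 1 member differed between the breeds without the 2 arrays of lowest index. With the replicate block, which pairs arrays by number, ICAM1 passed in Holstein-Friesian animals (1.40, adjusted p = 0.0423), and PECAM1 S1 passed in Brahman animals (-1.04, adjusted p = 0.013) and in the mean (-0.51, adjusted p = 0.0366). It changed no other call of the 7 probe sets. Over all probe sets, 1206 calls in Holstein-Friesian animals became 157 to 2563 with 1 array left out and 1047 to 4589 in other settings. The 4753 calls in Brahman animals became 2216 to 5567 and 1808 to 7657, and the 6689 in the mean became 4918 to 7289 and 4135 to 9298. In infested animals 40 breed calls became 11 to 1235 and 1 to 2200, in naive animals 6 became 5 to 37 and 5 to 400, and the 1 call for the breed difference in the infestation effect became 0 to 390 and 0 to 1131. Median centring moved the share of calls that were higher from 53.4% to 63.4% in Holstein-Friesian animals, from 48.2% to 60.2% in Brahman animals and from 48.9% to 60.2% in the mean. With the mean of a gene's probe sets in place of its highest-signal one, genes were counted as called in either direction. In the mean of the breeds the selectin list then had 2 in place of 3. The integrin list had 5, in place of 4 higher and 2 lower. The immunoglobulin-type and junction list had 3, in place of 1 higher and 1 lower, and the inducer list 6, in place of 6 higher and 1 lower. In Brahman animals the selectin list had 1 in place of 2 and the inducer list 5, in place of 2 higher and 2 lower. In Holstein-Friesian animals the immunoglobulin-type and junction list had 0 in place of 1.

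Values that changed sign were not past the threshold. With the index as covariate they were 0.57 for SELE and 0.022 for PECAM1 S1 in Brahman animals, 0.12 for PECAM1 S1 and -0.050 for S2 in the mean, 0.31 for ICAM1 in the breed difference of the effect, 0.16 for ICAM1 between infested breeds, and -0.076 for PECAM1 S1 and 0.0048 for S2 between naive breeds. With array weights they were 0.12 for SELE in Brahman animals, -0.048 for PECAM1 S2 in the mean, and 0.067 for ICAM1 and 0.17 for PECAM1 S2 between naive breeds. Without the 2 arrays of lowest index they were 0.010 for SELE and -0.23 for VCAM1 in Brahman animals and -0.022 for PECAM1 S2 in the mean, and with median centring 0.088 for PECAM1 S2 in Brahman animals. With 1 array left out, SELE ranged from -0.19 to 0.86 in Holstein-Friesian animals, from -0.43 to 0.025 in Brahman animals, from -0.16 to 0.36 in the mean and from -0.995 to 0.062 in the breed difference of the effect, where SELP ranged from -1.05 to 0.021. VCAM1 in Brahman animals ranged from -0.23 to 0.55. PECAM1 S1 ranged from -0.29 to 0.34 in Holstein-Friesian animals and from -0.29 to 0.27 between naive breeds, and S2 from -0.17 to 0.16 in Brahman animals and from -0.22 to 0.15 between naive breeds. ICAM1 ranged from -0.31 to 0.25 between naive and ITGB2 from -0.48 to 0.19 between infested breeds. Beyond the smaller samples in the fits without arrays, the cause of these changes was not tested.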
